A study of Mus musculus with 6 samples.

Results

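Tuft cell genes were followed in RNA from mouse crypt epithelium. They were chosen by symbol as 10 genes, Dclk1, Trpm5, Pou2f3, Alox5, Alox5ap, Sh2d6, Ptgs1, Rgs13, Avil and Hpgds, of which 9 were measured among 24930 genes. Sh2d6 was not analysed here. The 6 libraries form 2 groups. β-catenin GOF/+ libraries (n = 3) came from crypts that carried a gain-of-function mutation on 1 allele of the β-catenin gene. Control libraries (n = 3) came from crypts of the comparison group. Both groups were taken at day 4 after induction. The sources used here name neither the driver of the induction nor the strain, age or number of the mice. The tests therefore compare libraries, and part of the spread between them may be technical.

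Tuft cells are rare, chemosensory cells of the intestinal epithelium with a tuft of long microvilli. They sense parasites and metabolites through a taste-like cascade that ends in the cation channel TRPM5, and they answer with interleukin-25, leukotrienes and prostaglandins that act on type 2 immune cells. POU2F3, a POU domain transcription factor that can bind octamer DNA, is required for their formation in mice.

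Because the members moved together between libraries, the promoters of 4 of them are shown as context for the values. RefSeq (GRCm38.p6) gave a window of 250 bases before to 50 bases after the start for 8 of the 10 genes, with 2 windows for Dclk1. No window was matched for Pou2f3 and Alox5ap. Hpgds and Avil are the members with a match to the octamer or its first 7 bases, and Alox5 and Rgs13 are members whose values did not overlap between the groups. Capitals mark the octamer ATGCAAAT or its first 7 bases, ATGCAAA, on either strand. The coordinates belong to GRCm38.p6 and not to mm9, the build named for the deposited values.
Hpgds promoter, chr6:65144681-65144980, minus strand: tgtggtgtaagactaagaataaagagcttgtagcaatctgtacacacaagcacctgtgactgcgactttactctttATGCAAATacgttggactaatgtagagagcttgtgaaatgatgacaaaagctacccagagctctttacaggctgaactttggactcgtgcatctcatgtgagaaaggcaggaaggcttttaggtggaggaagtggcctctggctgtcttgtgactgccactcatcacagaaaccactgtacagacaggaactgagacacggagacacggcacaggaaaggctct
Avil promoter, chr10:127000459-127000758, plus strand: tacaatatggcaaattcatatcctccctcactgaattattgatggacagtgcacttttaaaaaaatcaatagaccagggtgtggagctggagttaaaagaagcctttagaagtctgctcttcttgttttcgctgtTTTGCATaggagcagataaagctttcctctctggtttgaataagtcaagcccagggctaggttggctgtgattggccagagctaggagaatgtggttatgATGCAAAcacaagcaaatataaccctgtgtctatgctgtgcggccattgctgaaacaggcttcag
Alox5 promoter, chr6:116461129-116461428, minus strand: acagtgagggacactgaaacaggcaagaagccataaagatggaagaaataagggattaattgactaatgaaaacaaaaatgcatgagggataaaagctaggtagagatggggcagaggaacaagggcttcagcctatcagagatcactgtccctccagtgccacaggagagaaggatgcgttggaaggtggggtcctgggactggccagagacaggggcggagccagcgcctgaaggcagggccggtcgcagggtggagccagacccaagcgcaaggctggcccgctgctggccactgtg
Rgs13 promoter, chr1:144177323-144177622, minus strand: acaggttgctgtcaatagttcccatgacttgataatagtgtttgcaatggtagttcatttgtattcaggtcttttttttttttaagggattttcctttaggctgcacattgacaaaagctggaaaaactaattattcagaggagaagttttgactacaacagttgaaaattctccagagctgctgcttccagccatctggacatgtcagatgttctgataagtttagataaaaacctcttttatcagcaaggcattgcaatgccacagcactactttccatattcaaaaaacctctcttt
The full octamer was found in the Hpgds window, beginning 174 bases before the start. The 7-base form, which is contained in the octamer, was found in 2 of the 9 member windows, those of Hpgds and Avil, and Avil holds it at 115 bases before the start on the opposite strand and at 15 bases before the start on the same strand. Among all 32851 windows of this length, 1.74% held the octamer and 4.63% the 7-base form. Among 57 windows of other listed tuft cell genes, 6 held the octamer (Sucnr1, Il4ra, Kctd12, Nradd, Itpr3 and 1810046K07Rik). A second spelling, ATGCTAAT, matched 0 member windows and 0.919% of all windows. These are matches of letters and say nothing about binding.

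The values are the authors' normalized abundance per gene, called units here. Library totals ranged from 645225 to 940163 units in β-catenin GOF/+ and from 756929 to 1268770 units in Control. Among values below 0.3 units the ratios between libraries fell in steps, which put the relative number of reads per unit at 0.886 to 1.35 in β-catenin GOF/+ and at 1.00 to 1.42 in Control, with Control replicate 1 set to 1. The step of 411 genes with 1 annotated transcript decreased with transcript length with a slope of -0.989 on log axes, so levels of different genes are on a scale per length. The absolute depth is unknown. Ctnnb1, which encodes β-catenin, averaged 261 ± 24.4 units in β-catenin GOF/+ and 256 ± 15.1 units in Control (SD, n = 3 each), and the value does not separate the alleles. Xist and Y-linked transcripts showed a male pattern in β-catenin GOF/+ replicate 1 and in Control replicates 1 and 2, and a female pattern in the other 3 libraries.

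All 9 members were lower on average in β-catenin GOF/+ than in Control crypts, and none passed the test. Each was above 1 unit in every library, so transcripts of tuft cells were measured in both groups. The 9 members summed to 41.1, 36.4 and 45.5 units in the 3 β-catenin GOF/+ libraries, against 119, 71.9 and 46.5 units in the 3 Control libraries. The β-catenin GOF/+ sums lay close together, and Control replicate 3 lay just above them. In limma over 11837 genes, 0 of 9 members had an adjusted p under 0.05, where 0.0169% of all tested genes did so in the lower direction and 0% in the higher direction. At an unadjusted p under 0.05, 4 members (Alox5, Alox5ap, Rgs13 and Dclk1) were lower in limma, against 3.59% of tested genes, and 0 were higher, against 4.72%. Every β-catenin GOF/+ value lay below every Control value for 3 members (Alox5, Alox5ap and Rgs13), against 8.37% of tested genes, and above every Control value for 0 members, against 8.34%. The median difference was -0.72 on the log2(value + 1) scale, against -0.02 over all tested genes, and 52.7% of tested genes had a difference below 0. Without Control replicate 1 the median of the members was -0.36. In bulk RNA, fewer tuft cells and less of these RNAs per cell cannot be told apart.

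**Figure D1:**
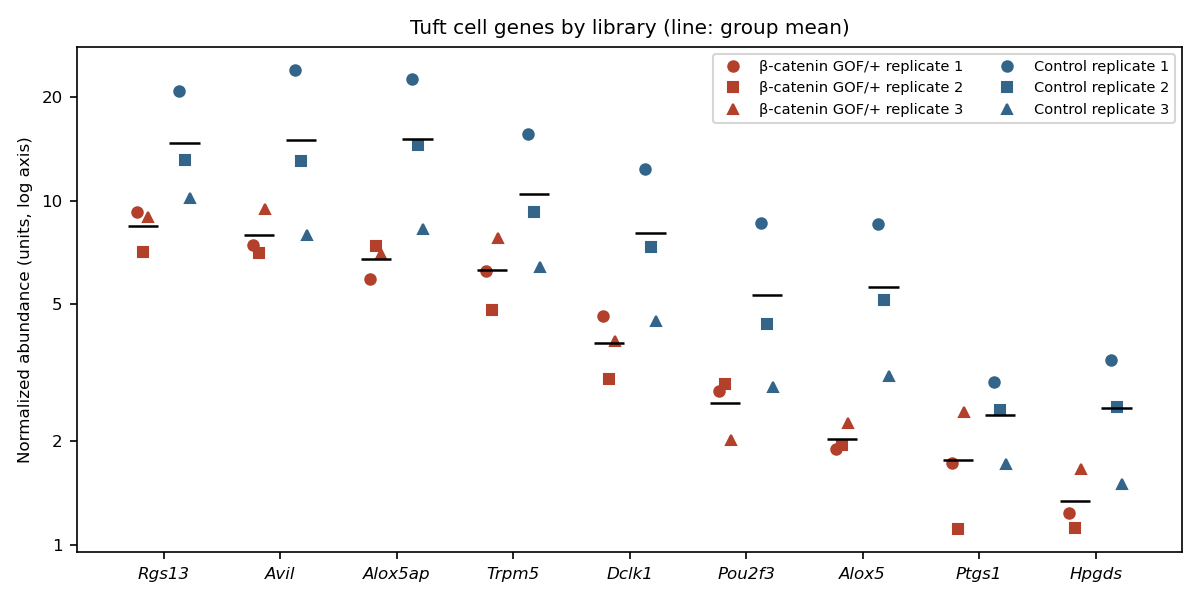
Normalized abundance in units (log axis) of the 9 measured tuft cell genes, ordered by their mean over all libraries, with 1 point per library and a line at each group mean. For each gene, Control replicates 1 and 2 lie above all 3 β-catenin GOF/+ libraries, and Control replicate 3 is the Control library nearest to them.

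Among the 9 members, Alox5 and Alox5ap, which act in leukotriene synthesis, had the lowest ratios of β-catenin GOF/+ to Control means. Alox5 encodes 5-lipoxygenase, which starts leukotriene synthesis from arachidonic acid. It had 1.90, 1.95 and 2.25 units in β-catenin GOF/+, against 8.54, 5.16 and 3.09 units in Control, and the groups did not overlap. Its mean ratio was 0.363 and its log2 difference -1.04 ± 0.30 (SE; adjusted p = 0.589 in limma). Alox5ap encodes the protein that presents arachidonic acid to 5-lipoxygenase. It had 5.91, 7.37 and 7.02 units in β-catenin GOF/+, against 22.6, 14.5 and 8.27 units in Control, again without overlap. The mean ratio was 0.447 and the log2 difference -0.96 ± 0.32 (adjusted p = 0.589 in limma).

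Hpgds and Ptgs1 act in prostaglandin synthesis, and their mean ratios were 0.538 for Hpgds and 0.738 for Ptgs1. Hpgds encodes hematopoietic prostaglandin D synthase, and its octamer is shown above. It had 1.23, 1.12 and 1.66 units in β-catenin GOF/+, against 3.45, 2.52 and 1.495 units in Control, so that Control replicate 3 lay below β-catenin GOF/+ replicate 3 (log2 difference -0.54 ± 0.25, adjusted p = 0.589 in limma). Ptgs1 encodes cyclooxygenase-1, which makes the precursor that Hpgds uses. It had 1.73, 1.11 and 2.44 units in β-catenin GOF/+, against 2.97, 2.47 and 1.71 units in Control. Control replicate 3 lay below β-catenin GOF/+ replicates 1 and 3. Its mean ratio was the one nearest to 1 among the members, and its log2 difference was -0.31 ± 0.25 (adjusted p = 0.644 in limma).

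Of the genes of sensing and identity, Rgs13 alone had groups that did not overlap. Rgs13, a regulator of G protein signalling, had 9.26, 7.09 and 8.998 units in β-catenin GOF/+, against 20.9, 13.1 and 10.2 units in Control (log2 difference -0.69 ± 0.26, adjusted p = 0.589 in limma). Trpm5, the calcium-activated cation channel at the end of the taste cascade, had 6.24, 4.82 and 7.77 units in β-catenin GOF/+, against 15.7, 9.25 and 6.41 units in Control. Here β-catenin GOF/+ replicate 3 was above Control replicate 3, and the log2 difference was -0.59 ± 0.31 (adjusted p = 0.589 in limma). Pou2f3, the lineage factor, had 2.79, 2.92 and 2.02 units in β-catenin GOF/+, against 8.64, 4.38 and 2.88 units in Control. The overlap rested on β-catenin GOF/+ replicate 2 and Control replicate 3, and the log2 difference was -0.72 ± 0.33 (adjusted p = 0.589 in limma).

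The remaining members are markers of the cell body. Dclk1, a microtubule-associated kinase widely used as a tuft cell marker, had 4.61, 3.03 and 3.91 units in β-catenin GOF/+, against 12.4, 7.34 and 4.48 units in Control. β-catenin GOF/+ replicate 1 lay just above Control replicate 3 (log2 difference -0.82 ± 0.33, adjusted p = 0.589 in limma). Avil encodes advillin, an actin-binding protein of the villin family. It had 7.45, 7.03 and 9.44 units in β-catenin GOF/+, against 24.0, 13.1 and 7.97 units in Control, with β-catenin GOF/+ replicate 3 above Control replicate 3 (log2 difference -0.72 ± 0.36, adjusted p = 0.589 in limma).

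The difference depended on which Control library was set beside the β-catenin GOF/+ mean. Relative to Control replicate 1, the β-catenin GOF/+ mean was 0.238 times (Alox5) to 0.592 times (Ptgs1) as high, with a median of 0.332 over the 9 members. Relative to Control replicate 2 the ratios ran from 0.394 to 0.713 with a median of 0.588. Relative to Control replicate 3 they ran from 0.658 to 1.03 with a median of 0.895, and 8 of 9 β-catenin GOF/+ means were lower. Control replicate 1 was the highest library for 9 of 9 members, as it was for 12.3% of all tested genes. Among the 3 libraries with a male pattern, the summed level was 41.1 units in β-catenin GOF/+ replicate 1, against 119 and 71.9 units in Control replicates 1 and 2. Among the 3 with a female pattern, it was 36.4 and 45.5 units in β-catenin GOF/+ replicates 2 and 3, against 46.5 units in Control replicate 3. With sex as a term in the fit the median difference of the members was -0.55, with 9 of 9 below 0. In that limma fit 2 members had an unadjusted p under 0.05, against 4 in the main fit. The lowest adjusted p of a member was 0.921 in limma with sex as a term.

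The members varied little among β-catenin GOF/+ libraries and widely among Control libraries. The SD of log2(value + 1) had a median over the members of 0.20 in β-catenin GOF/+ and 0.61 in Control. Over all tested genes the medians were 0.26 in β-catenin GOF/+ and 0.18 in Control. The Control SD was the larger for 8 of 9 members, with Ptgs1 as the exception, and for 33.2% of all tested genes. The highest Alox5 value was 1.19 times the lowest in β-catenin GOF/+ and 2.76 times the lowest in Control, and for Avil these ratios were 1.34 in β-catenin GOF/+ and 3.011 in Control.

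Over the 6 libraries, proportions among the members moved less than their sum, which was highest in Control replicate 1. Within β-catenin GOF/+ this did not hold for every member. The sum ran from 36.4 to 45.5 units there, and Pou2f3 made up 6.79, 8.02 and 4.44% of it. Avil made up 17.2 to 20.7% of the summed level over the 6 libraries, Rgs13 17.5 to 22.5% and Trpm5 12.9 to 17.1%. Alox5 was the member whose share separated the groups: it made up 4.61, 5.36 and 4.95% in β-catenin GOF/+, against 7.17, 7.17 and 6.65% in Control. This was noticed after the values were seen and has no test. The share of Ptgs1 varied most, 4.21, 3.04 and 5.35% in β-catenin GOF/+ and 2.49, 3.43 and 3.68% in Control. Pearson's r between members over the 6 libraries, which share the group difference and Control replicate 1, had a median of 0.93 over 36 pairs and ranged from 0.56 to 0.99.

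**Figure D2:**
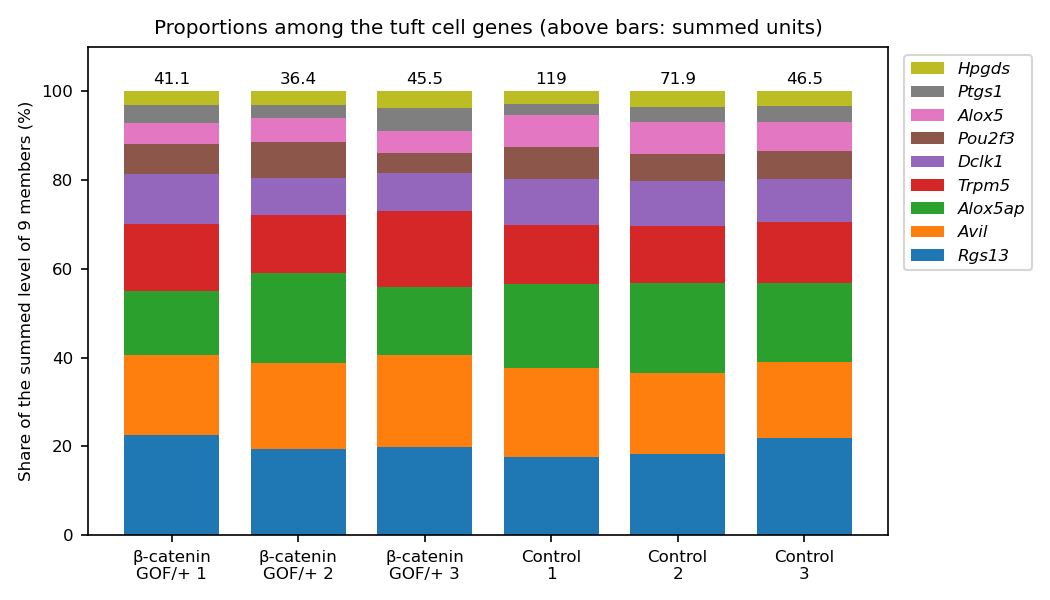
Share of each member in the summed level of the 9 measured tuft cell genes (percent), as stacked bars per library, with the summed units above each bar. The sum ranges from 36.4 to 119 units. The share of Avil, the steadiest, stays between 17.2 and 20.7%, and that of Ptgs1, the least steady, runs from 2.49 to 5.35%.

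The order of the members by level was similar in both groups. In β-catenin GOF/+ it ran Rgs13 (8.45 ± 1.19 units, mean ± SD), Avil (7.97 ± 1.29), Alox5ap (6.77 ± 0.763), Trpm5 (6.28 ± 1.47), Dclk1 (3.85 ± 0.793), Pou2f3 (2.58 ± 0.489), Alox5 (2.03 ± 0.191), Ptgs1 (1.76 ± 0.665) and Hpgds (1.34 ± 0.285). In Control it ran Alox5ap (15.1 ± 7.17 units), Avil (15.0 ± 8.19), Rgs13 (14.7 ± 5.52), Trpm5 (10.4 ± 4.74), Dclk1 (8.07 ± 4.01), Alox5 (5.60 ± 2.75), Pou2f3 (5.30 ± 2.99), Hpgds (2.49 ± 0.976) and Ptgs1 (2.38 ± 0.633). In β-catenin GOF/+ the steps from Trpm5 to Dclk1, from Dclk1 to Pou2f3 and from Pou2f3 to Alox5 exceeded the larger SD of the pair, and the other neighbours did not differ beyond it. In Control no neighbours differed beyond their SD. The members moved together between libraries, so this SD does not measure how firm the order was within a library. In Control, Rgs13 above Trpm5, Trpm5 above Dclk1, Dclk1 above Alox5 and Pou2f3 above Hpgds held in 3 of 3 libraries. In β-catenin GOF/+, Trpm5 above Dclk1 and Dclk1 above Pou2f3 held in 3 of 3 libraries, and Pou2f3 above Alox5 in 2.

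Most other genes of the tuft cell programme had a lower mean in β-catenin GOF/+ as well, and none passed the test. Of 58 further genes in 4 lists, 56 were measured and 42 had a mean of at least 1 unit and were tested with limma. Of these, 32 (76.2%) were lower and 10 higher in β-catenin GOF/+, where 52.7% of all tested genes were lower, and 0 had an adjusted p under 0.05. At an unadjusted p under 0.05 in limma, 7 were lower, against 3.59% of tested genes, and 0 were higher, against 4.72%. For 3 of the 42 genes, or 7.14%, every β-catenin GOF/+ value lay below every Control value (Gng13, Plcb2 and Sh2d7), which is close to the 8.37% of all tested genes, and for 0 every value lay above, against 8.34%. Sh2d7, an adaptor protein gene named after its values were seen, had 5.23, 4.28 and 5.88 units in β-catenin GOF/+, against 15.9, 9.22 and 5.90 units in Control. The median log2 difference of the 42 genes was -0.33, and without Control replicate 1 it was -0.16, with 26 of 40 lower. The symbols Pou2af2 and Ccdc129 were not analysed here.

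Among 6 tested genes of the chemosensory cascade, 5 were lower and 1 higher. Gng13, a gamma subunit of the taste G protein, had 1.10, 1.26 and 0.643 units in β-catenin GOF/+, against 7.64, 6.64 and 2.00 units in Control. The groups did not overlap, and its log2 difference of -1.56 ± 0.41 (adjusted p = 0.589 in limma) was further below 0 than that of any member. Plcb2, the phospholipase C downstream of that G protein, had 1.22, 1.29 and 1.398 units in β-catenin GOF/+, against 5.37, 2.34 and 2.13 units in Control, also without overlap. Plcg2, another phospholipase C, had 10.3, 8.51 and 10.4 units in β-catenin GOF/+, against 13.8, 10.03 and 9.57 units in Control, with overlap. The alpha subunit gene Gnat3 had a mean below 1 unit and was not tested, and it had 0.561, 0.206 and 2.29 units in β-catenin GOF/+ and 1.05, 0.611 and 0.147 units in Control.

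Among 6 tested genes of mediators and their receptors, 3 were lower and 3 higher. Ltc4s, leukotriene C4 synthase, which acts after the products of Alox5 and Alox5ap, had 2.03, 3.55 and 3.99 units in β-catenin GOF/+, against 6.07, 4.29 and 3.49 units in Control, a mean ratio of 0.692. Lta4h, leukotriene A4 hydrolase, which also uses a product of Alox5 and was named after its values were seen, had 151, 128 and 102 units in β-catenin GOF/+, against 100.4, 130 and 131 units in Control, a mean ratio of 1.05. So the low ratios of Alox5 and Alox5ap were not shared by Lta4h in this bulk RNA. The mean over all libraries was 124 units for Lta4h and 3.82 units for Alox5. Which cells the Lta4h transcripts came from was not tested. Il17rb, a subunit of the interleukin-25 receptor, had 1.94, 1.35 and 2.10 units in β-catenin GOF/+, against 3.76, 1.99 and 2.39 units in Control. Il4ra, a receptor subunit for interleukin-4 and interleukin-13, was on the other side at 13.5, 10.7 and 33.5 units in β-catenin GOF/+, against 12.1, 9.58 and 10.4 units in Control. All 4 overlapped between the groups. Il25 itself was near the bottom of the scale, at 0, 0 and 0.355 units in β-catenin GOF/+ and 0.157, 0.153 and 0.221 units in Control.

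Among 4 tested transcription regulators, 3 were lower and 1 higher. Spib, an ETS family factor, had 4.57, 3.60 and 6.77 units in β-catenin GOF/+, against 15.0, 7.64 and 6.65 units in Control. 1810046K07Rik, whose promoter window holds the octamer on both strands, had 5.31, 3.64 and 4.81 units in β-catenin GOF/+, against 9.06, 5.32 and 5.12 units in Control. Sox4, an HMG box factor, had 8.82, 10.6 and 5.45 units in β-catenin GOF/+, against 12.8, 14.01 and 6.54 units in Control. Of 14 listed genes below the test limit, 2 had every β-catenin GOF/+ value below every Control value (Gfi1b and Hmx2) and 1 above (Ptgs2). Of all genes below that limit, 2.02% lay below and 4.62% above. The values of Gfi1b, Hmx2 and Ptgs2 are low, the highest being 1.30 units for Gfi1b in Control replicate 1. Named after their values were seen, Gfi1b had 0.314, 0.231 and 0.353 units in β-catenin GOF/+ and 1.30, 0.564 and 0.595 units in Control, and Hmx2 had 0.232, 0.171 and 0.157 units in β-catenin GOF/+ and 0.741, 0.720 and 0.357 units in Control. Hmx3, the remaining regulator of this kind, overlapped at 0.291, 0.343 and 0.197 units in β-catenin GOF/+ and 1.10, 0.564 and 0.204 units in Control. Ptgs2, the inducible cyclooxygenase, had 0.0802, 0.130 and 0.703 units in β-catenin GOF/+ and 0.0479, 0.0621 and 0.0224 units in Control.

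Of 26 tested genes of signalling and cell structure, 21 were lower and 5 higher. Kctd12, an auxiliary subunit of GABA-B receptors, had 12.1, 9.55 and 13.05 units in β-catenin GOF/+, against 33.6, 24.4 and 12.8 units in Control. Ly6g6f, a surface protein gene, had 0.629, 0.405 and 0.796 units in β-catenin GOF/+, against 2.43, 2.36 and 0.770 units in Control. Lrmp, a membrane protein gene of the endoplasmic reticulum, had 8.71, 7.32 and 12.4 units in β-catenin GOF/+, against 28.2, 15.0 and 12.0 units in Control. In all 3, Control replicate 3 lay below the highest β-catenin GOF/+ library.

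**Figure D3:**
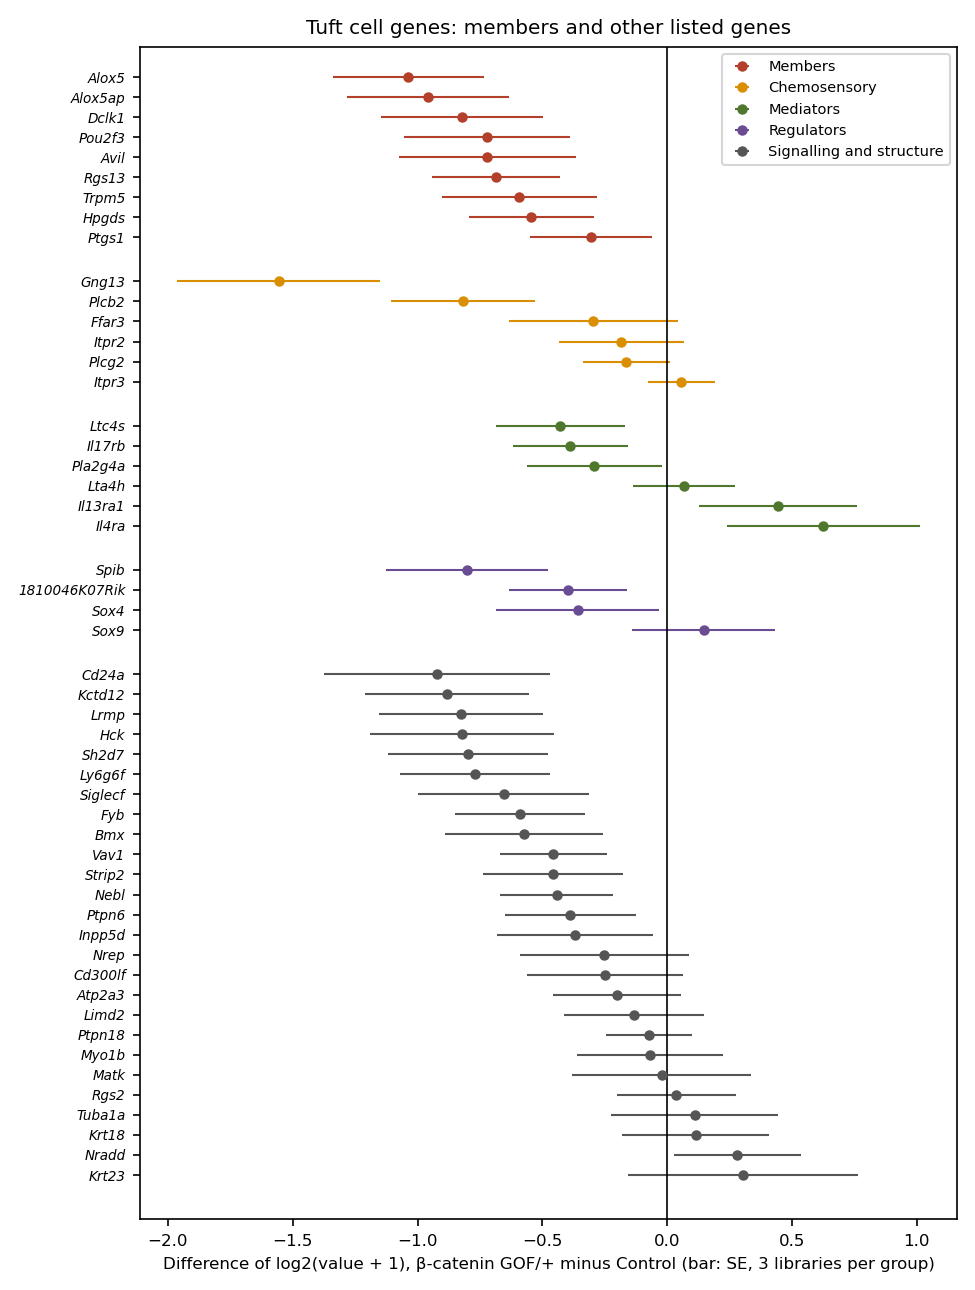
Difference of log2(value + 1), β-catenin GOF/+ minus Control, for the 9 measured members and 42 other tested tuft cell genes, with bars for the SE. All 9 members and 32 of the 42 others lie below 0, and Gng13 lies furthest from it at -1.56.

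Several members are also expressed by cells that may lie near the crypts, namely Alox5, Alox5ap and Hpgds by mast cells and macrophages, Ptgs1 by platelets and Rgs13 by B cells. Of 10 mast cell markers, Kit was the highest, at 8.74, 9.99 and 4.52 units in β-catenin GOF/+ and 21.6, 11.4 and 7.72 units in Control, and Mcpt1 followed at 3.87, 5.82 and 12.2 units in β-catenin GOF/+ and 9.36, 2.95 and 12.3 units in Control. Mcpt2 had 1.95, 3.19 and 7.86 units in β-catenin GOF/+ and 2.91, 1.71 and 5.20 units in Control. Another 6 of the 10 markers, Cpa3, Fcer1a, Ms4a2, Mcpt4, Cma1 and Tpsb2, had no value above 0.610 units. The last marker, Hdc, named after its values were seen, was below the test limit. It had 1.33, 0.817 and 1.18 units in β-catenin GOF/+ and 0.522, 0.298 and 0.366 units in Control. Its groups did not overlap, with β-catenin GOF/+ above, as for 4.62% of all genes below the test limit. The mast cell list summed to 16.3 to 27.1 units in β-catenin GOF/+ and 16.8 to 34.9 units in Control. Kit made up 21.6 of the 34.9 units, which belong to Control replicate 1. Of 3 tested genes, 2 were lower (Kit and Mcpt1), and whether the Kit transcripts came from mast cells was not tested. The part of such cells in the levels of Alox5, Alox5ap and Hpgds was not tested.

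In the macrophage, B cell, granulocyte and T cell lists the highest library was β-catenin GOF/+ replicate 3. Macrophage markers summed to 21.5 to 62.1 units in β-catenin GOF/+ and 12.3 to 29.2 units in Control, with 6 of 6 tested genes higher. For 4 of these 6 (Cd68, C1qa, C1qb and C1qc), every β-catenin GOF/+ value lay above every Control value, against 8.34% of all tested genes. Lyz2 had 9.79, 17.99 and 31.7 units in β-catenin GOF/+ and 20.7, 6.24 and 8.35 units in Control, and Itgam had 5.52, 4.88 and 3.12 units in β-catenin GOF/+ and 3.98, 3.61 and 5.39 units in Control. B cell markers summed to 4.54 to 60.4 units in β-catenin GOF/+ and 2.17 to 22.6 units in Control, with 5 of 5 tested genes higher. Jchain had 7.22, 1.32 and 21.8 units in β-catenin GOF/+ and 9.36, 0.380 and 8.99 units in Control, and Cd79a had 0.596, 0.250 and 14.2 units in β-catenin GOF/+ and 1.61, 0.0824 and 5.71 units in Control. Granulocyte markers, among them Siglecf, which a tuft cell list also holds, summed to 5.35 to 18.8 units in β-catenin GOF/+ and 5.82 to 10.2 units in Control, and T cell and innate lymphoid markers to 79.6 to 306 units in β-catenin GOF/+ and 94.2 to 145 units in Control.

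Platelet markers were near 0 throughout. They summed to 0.915 to 1.71 units in β-catenin GOF/+ and 1.02 to 1.499 units in Control, with Ppbp at 0 in every library. Their highest genes were Itga2b, with a mean of 0.523 units in β-catenin GOF/+ and 0.332 units in Control, and Gp1ba, with 0.316 units in β-catenin GOF/+ and 0.417 units in Control. The median difference of the members without β-catenin GOF/+ replicate 3 was -0.74.

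Other epithelial lists were read beside the members. Paneth cell markers summed to 70105, 220174 and 47929 units in β-catenin GOF/+, against 459957, 215487 and 125667 units in Control, with 11 of 11 genes lower and Control replicate 1 highest for 11 of 11. The defensins among them are close copies of each other, so their single values are uncertain. Pla2g2a, a Paneth cell marker named after its values were seen, differed widely within Control. It had 84.1, 234 and 187 units in β-catenin GOF/+, against 17763, 94.6 and 3725 units in Control, and the cause was not tested. Goblet cell markers summed to 11401, 13615 and 12890 units in β-catenin GOF/+, against 16723, 11831 and 12010 units in Control, with 3 lower and 5 higher. Enteroendocrine markers went the other way, at 335, 319 and 472 units in β-catenin GOF/+, against 233, 218 and 281 units in Control, with 8 of 10 tested genes higher. Enterocyte markers summed to 13662, 6113 and 26374 units in β-catenin GOF/+, against 3866, 5261 and 10718 units in Control, with 11 of 12 higher. Stem cell markers summed to 740, 975 and 208 units in β-catenin GOF/+, against 1062, 1486 and 658 units in Control, with 7 of 10 lower. No gene of these lists passed the adjusted threshold in limma. At an unadjusted p under 0.05 in limma, 5 enteroendocrine, 1 enterocyte and 1 stem cell gene were higher, against 4.72% of all tested genes. Lower at that p were 2 Paneth cell genes, against 3.59% of all tested genes. Stromal markers, which the epithelium should lack, summed to 22.8, 17.5 and 42.3 units in β-catenin GOF/+, against 8.55, 5.53 and 9.54 units in Control. For 5 of 5 tested stromal genes every β-catenin GOF/+ value lay above every Control value, against 8.34% of all tested genes. At an unadjusted p under 0.05 in limma 4 were higher, against 4.72%, and 0 had an adjusted p under 0.05. The mean ratio was 1.72 for Vim, the highest of them, and 8.26 (Dcn) to 73.1 (Col1a2, near 0 in Control) for the others. The part of these lists in the tuft cell result was not tested. Of 9 markers of intestinal region, 5 were tested with limma, and 3 (Fabp6, Slc10a2 and Car4) had an unadjusted p under 0.05. Each of the 3 had an adjusted p of 0.589 in limma and no overlap between the groups. Fabp6 and Slc10a2 lay above Control, as did 8.34% of all tested genes, and Car4 lay below, as did 8.37%. Fabp6, the ileal bile acid binding protein gene, had 174, 388 and 1101 units in β-catenin GOF/+, against 156, 5.74 and 74.2 units in Control (log2 difference 3.30, unadjusted p = 0.0292 in limma). Slc10a2, the ileal bile acid transporter gene, had 7.89, 5.35 and 28.4 units in β-catenin GOF/+, against 5.07, 2.38 and 3.13 units in Control. Car4, a carbonic anhydrase gene, had 199.99, 189 and 141 units in β-catenin GOF/+, against 272, 223 and 396 units in Control. These 3 were named after their values were seen, and the part of intestinal region in the tuft cell result was not tested. Pan-epithelial markers summed to 8588, 7116 and 9028 units in β-catenin GOF/+, against 6169, 7180 and 8131 units in Control. When all libraries were scaled to these genes, the median difference was -0.94 for the members and -0.26 for all tested genes.

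**Figure D4:**
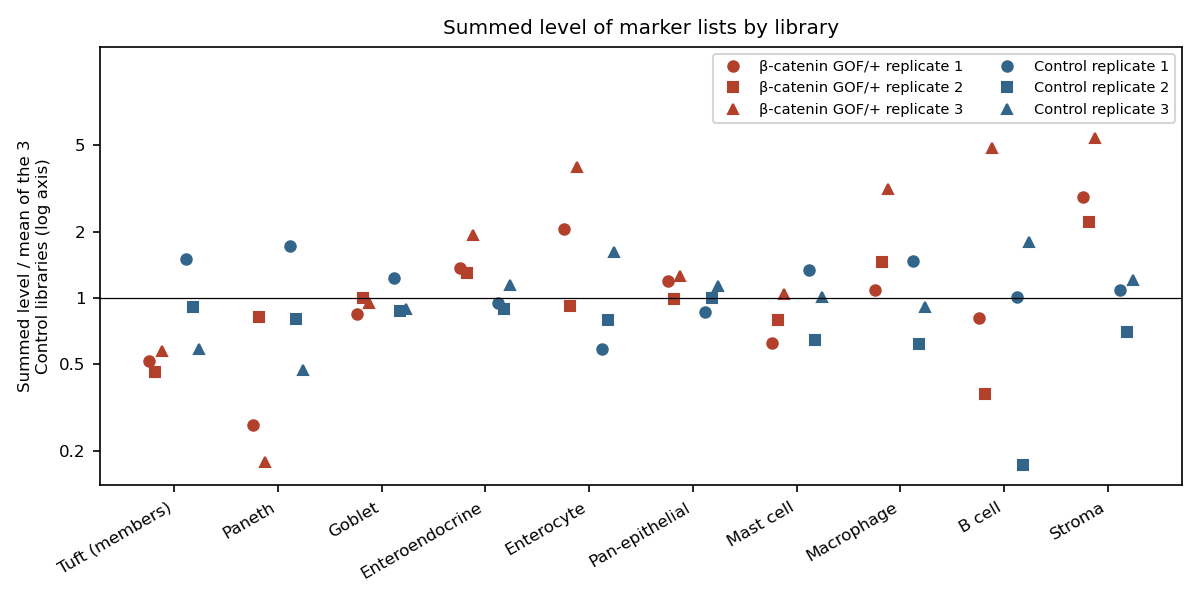
Summed level of each marker list per library, divided by the mean of the 3 Control libraries (log axis). The tuft cell sums of the 3 β-catenin GOF/+ libraries (36.4 to 45.5 units) lie below all 3 Control sums (46.5 to 119 units), while the stromal sums lie above them.

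Genes outside the tuft cell lists were ranked by how closely their levels followed the members over the 6 libraries. Of 8855 genes with a mean of at least 5 units, 21 (0.237%) had a Pearson r over 0.9 with the mean of the scaled members. Of the 42 other tuft cell genes 13 (31.0%) did. These 42 needed a mean of only 1 unit, and 25 of them reached 5 units, so the shares have unlike limits. Pik3r5, a regulatory subunit of a phosphoinositide 3-kinase activated by G proteins, had an r of 0.997. It had 3.82, 3.37 and 4.69 units in β-catenin GOF/+, against 12.5, 7.91 and 4.83 units in Control, and the groups did not overlap. The other 7 of the 8 closest genes were Spg11, Kctd20, Rbm18, Ankrd27, Nlk, Macf1 and Osbpl2, with r between 0.93 and 1.00 and mean ratios of 0.833 to 0.915, against 0.470 for Pik3r5. Spg11 had 7.20, 7.04 and 7.41 units in β-catenin GOF/+, against 9.23, 8.19 and 7.52 units in Control. Osbpl2, a lipid transfer protein gene, had 16.0, 17.0 and 16.6 units in β-catenin GOF/+, against 24.1, 18.7 and 16.3 units in Control. These r values describe 6 libraries that share the group difference and Control replicate 1.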

How the data were processed

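Poly-T beads were used to purify messenger RNA of 6 mouse crypt epithelium libraries, which were sequenced on Illumina instruments after random priming, per the labels. The sample titles gave the groups and replicate numbers, by which the table's columns were matched; columns named for a heterozygous exon belong to the group that is not Control. The values deposited by the authors are a normalized signal per gene: 0% of values above 0 are whole numbers, and library totals differ. The submitters' processing notes name mm9, DESeq2 1.40.1 and kallisto 0.46.1 without their role; the normalizing step and the annotation were not stated there. All value columns had a sample (0 without).

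The test was run on log2(value + 1) of the 11837 genes whose mean reached 1 unit. It used limma 3.58.1 (R 4.3.3) with group as its term, a trend of variance on mean, and Benjamini-Hochberg adjustment over all of them at 0.05. Differences on this scale understate the change of low genes. The fit was tested on simulated data. Members and lists were chosen with earlier results of these data known. Genes named were the members, the 3 genes with the smallest p in each of 4 other tuft cell lists, the 8 genes closest in pattern and the 2 highest genes of 4 lists of other cells; others were chosen after their values were seen. Some listed markers are not reported here. The alternatives were other scalings, filters, pseudocounts, array weights, a replicate block, sex as a term and leaving out each library. Python 3.11.15 with matplotlib 3.10.9, pandas 2.3.3 and NumPy 2.4.6 made the tables and figures.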

Additional observations from a re-analysis of the deposited data

How the results depend on the processing

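Across 16 alternatives, every log2 difference of a member stayed below 0 (140 of 140 values, from -1.34 to -0.12), and 0 of them passed the adjusted threshold in limma; the lowest adjusted p was 0.0945, for Alox5 with array weights. Requiring a mean of 5 units left 5 of 9 members. The median of the members ranged from -1.02 to -0.36 when each library was left out, with the value nearest 0 without Control replicate 1, and from -0.94 to -0.52 under the other alternatives. The number of members lower at an unadjusted p under 0.05 in limma was 4 in the main fit. It was 8 with array weights, with pan-epithelial scaling, which moved the median of all tested genes to -0.26, or without Control replicate 3. It was 2 with sex as a term or without β-catenin GOF/+ replicate 2. It was 1 without β-catenin GOF/+ replicate 1 or Control replicate 1 or 2. Of the 42 other tuft cell genes, 1 was lower at that p with sex as a term, against 7 in the main fit. The median of the other tuft cell genes, -0.33, was -0.16 without Control replicate 1, -0.18 with a pseudocount of 5, -0.20 when a mean of 5 units was required and -0.56 with pan-epithelial scaling; the cause was not tested. Of these genes 0 passed under any alternative.

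Over all tested genes limma called 2 lower and 0 higher. With pan-epithelial scaling 4 were higher, with no filter 0 were lower, with a pseudocount of 0.1 1 was higher, with a pseudocount of 5 0 were lower and 1 higher, with sex as a term 0 were lower, and with array weights, whose estimation stopped short of its tolerance, 7 were lower and 20 higher. When each library was left out, 0 to 3 were lower and 0 to 2 higher. The labels link same-numbered libraries only by their number. Deviations of same-numbered libraries correlated at -0.29, 0.33 and 0.32, and those of other pairs across the groups at -0.49 to 0.21. So few values cannot decide whether the libraries were paired. With the replicate block 0 genes were called lower, with adjusted p for the members of 0.400 to 0.613 in limma. The unknown depth limits the low genes most.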
